A study of Mus musculus with 6 samples.

Results

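Conventional dendritic cells (cDC) take up antigen and present it to T cells, and they fall into a cDC1 and a cDC2 type. cDC1 depend on the transcription factors Batf3 and Irf8, take up dead cells through the lectin Clec9a and present their antigens to CD8 T cells. cDC2 depend on Irf4 and Relb, carry pattern-recognising lectins and mainly prime CD4 T cells. Both arise in bone marrow from c-Kit+ progenitors that respond to the ligand of Flt3, and the spleen holds both. The 8 genes described here are Batf3, Zbtb46, Clec9a, Cd209a, Clec10a, Itgax, Itgae and Apol7c, all protein-coding genes of the mouse known from these cells. They were taken by symbol from a table of 24054 genes, having been chosen by their TPM in the AML and MPN mice, with their difference between the groups known. That difference is therefore given as a description, with no test. All 8 were among the 12223 genes with at least 1 TPM (a level scaled to transcript length) in at least 3 of 6 libraries.

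RNA was sequenced from c-Kit+ splenocytes, cells that CD117 magnetic beads had held back after red cell lysis, with 1 library per mouse. The 3 AML mice (acute myeloid leukaemia), harvested moribund, were Flt3ITD/ITD, Dnmt3afl/- MxCre, with 1 floxed and 1 null allele of the DNA methyltransferase gene Dnmt3a and a Cre recombinase driven by the Mx promoter. The 3 MPN mice (myeloproliferative neoplasm) were Flt3ITD/ITD, Dnmt3afl/fl controls whose titles name no Cre. Every mouse thus carried the internal tandem duplication of the receptor Flt3 on both alleles. The Mx promoter responds to interferon and is not restricted to blood cells. Genotype, Cre and disease state cannot be told apart here, and ages are not in the labels. Each replicate is 1 mouse, and replicate numbers follow accession order and pair no mice.

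Dnmt3a stood at 11.5 to 13.5 TPM in AML mice, against 29.3 to 33.9 TPM in MPN, and Kit, the selected marker, at 99.2 to 129.7 TPM in AML, against 144.7 to 152.0 TPM in MPN. Relative depth, read from the step that 1 read adds to the deposited RPKM values, was 0.736 to 1.296 in AML and 0.937 to 1.046 in MPN. Genes at 1 TPM or more numbered 11853 to 12034 per AML library and 11780 to 12032 per MPN library. Xist was at 186 and 194 TPM in AML mice 1 and 2, and no higher than 0.06 TPM in the other 4 libraries, so AML replicate 3 was the only male of its group and all MPN mice were male. MPN replicate 1 came from another sequencing run than the other 5. Over all 12223 genes tested with limma, 30.1% passed an adjusted p of 0.05, 10% lower and 20.1% higher in AML. The median log2 fold change was 0.13. Each list count below is to be read beside these shares, and no list was tested as a set.

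Promoters are shown first, because the fold differences between AML and MPN were largest for Cd209a and Apol7c, and because Itgax is read most widely as a cDC marker. A RefSeq promoter (GRCm38.p6, 250 bases before to 50 after the gene's start) was matched for 6 of the 8 genes. Clec10a and Itgae had no match. The RefSeq starts used for Cd209a, Clec9a, Itgax and Apol7c lie within 3 bases of the GENCODE gene start. Those of Zbtb46 and Batf3 lie 35 kb and 0.567 kb inside the GENCODE gene, so their windows are not promoters of the annotated gene start and are not shown. The Cd209a window is chr8:3748935-3749234 on the minus strand, that of Apol7c chr15:77533266-77533565 on the minus strand and that of Itgax chr7:128129300-128129599 on the plus strand. Each is written 5′ to 3′ along the gene, and capitals mark the motif matches named after them.
Cd209a: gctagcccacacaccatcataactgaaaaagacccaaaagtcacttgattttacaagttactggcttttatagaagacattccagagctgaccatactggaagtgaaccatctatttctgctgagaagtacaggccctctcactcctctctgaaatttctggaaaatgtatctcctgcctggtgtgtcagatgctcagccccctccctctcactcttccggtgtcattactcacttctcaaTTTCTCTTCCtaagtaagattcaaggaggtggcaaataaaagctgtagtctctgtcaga
Apol7c: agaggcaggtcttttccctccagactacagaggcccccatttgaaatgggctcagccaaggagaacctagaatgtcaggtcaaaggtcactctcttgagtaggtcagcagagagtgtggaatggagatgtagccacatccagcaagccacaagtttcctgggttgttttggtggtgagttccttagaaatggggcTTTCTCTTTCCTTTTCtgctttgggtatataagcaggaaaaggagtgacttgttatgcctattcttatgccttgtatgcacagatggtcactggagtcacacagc
Itgax: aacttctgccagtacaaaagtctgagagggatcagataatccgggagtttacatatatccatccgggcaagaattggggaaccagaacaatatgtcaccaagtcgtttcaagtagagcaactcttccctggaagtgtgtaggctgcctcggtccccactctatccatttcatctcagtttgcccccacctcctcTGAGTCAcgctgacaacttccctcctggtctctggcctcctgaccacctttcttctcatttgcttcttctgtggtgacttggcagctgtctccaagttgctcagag
Both strands were searched for GAGGAA (the core bound by PU.1), TGANTCA (an AP-1 site, also bound by BATF factors), an ETS-IRF composite (GGAA, any 2 bases, GAAA) and a pair of interferon response half-sites (GAAA, any 2 bases, GAAA). Cd209a held TTTCTCTTCC, the composite on the opposite strand, whose first base lay 9 bases before the start. Apol7c held the overlapping TTTCTCTTTC and TTTCCTTTTC, both half-site pairs on the opposite strand, 55 and 49 bases before the start. Itgax held TGAGTCA at 56 bases before the start, and the Clec9a window held no match to the 4 motifs. Of 32851 promoters of the same length, 28.3% held the PU.1 core, 7.81% the AP-1 site, 2.72% the composite and 3.44% the half-site pair. These matches describe letters and show no binding.

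Among the 8 genes, 6 had lower TPM in every AML mouse than in any MPN mouse, Itgae was higher in every AML mouse, and Clec9a overlapped between the groups. Cd209a, Clec10a and Apol7c were low in all 3 AML mice, whereas Batf3, Zbtb46, Clec9a and Itgax varied 5.0-, 5.08-, 9.26- and 6.74-fold from the lowest to the highest AML mouse. Over all tested genes, 50.9% did not overlap between the groups, 16.1% lower and 34.8% higher in AML. The 6 and the 1 were selected for this contrast, so nothing is read from them against that background. In bulk RNA, fewer dendritic cells and less of a transcript per cell cannot be told apart.

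**Figure D1:**
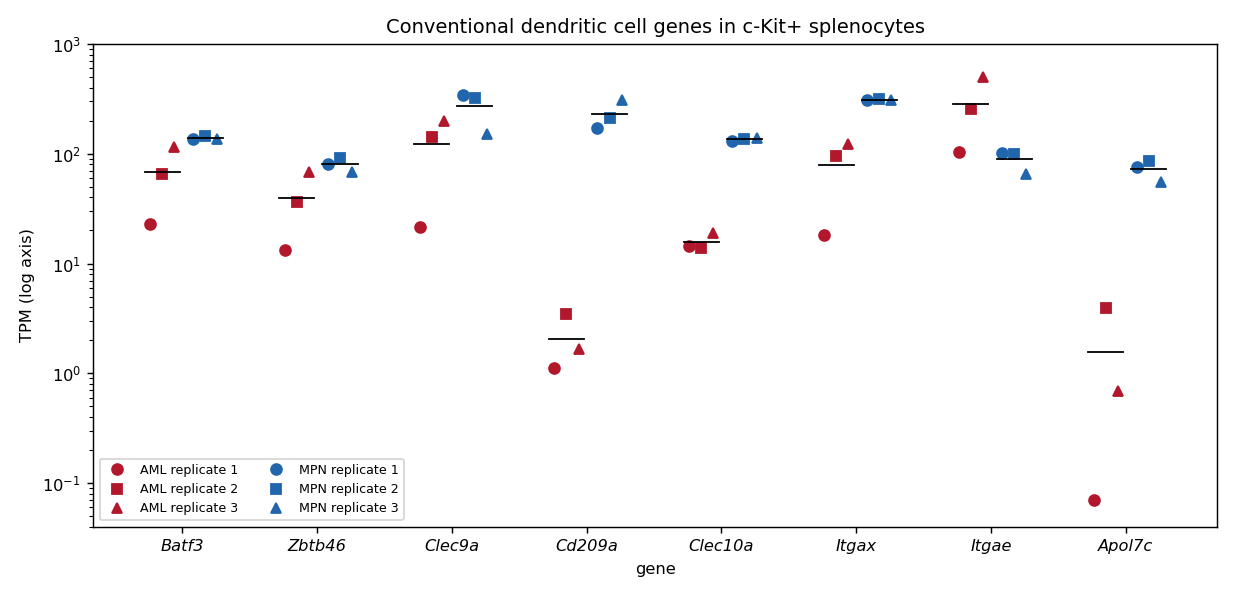
TPM (log axis) of the 8 conventional dendritic cell genes in 3 AML libraries (red) and 3 MPN libraries (blue), with 1 point per mouse and a line at each group's mean. Cd209a and Apol7c are at 3.9 TPM or less in every AML mouse and at 55.71 TPM or more in every MPN mouse, Itgae is the 1 gene with all AML points above the MPN points, and Clec9a overlaps.

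Batf3 and Zbtb46 encode transcription factors. Batf3 pairs with Jun proteins and is required for cDC1, and Zbtb46 marks committed cDC of both types. Batf3 (chromosome 1, 191097847 to 191108945, plus strand, all positions on GRCm38) was at 23.07, 65.11 and 115.27 TPM in AML mice 1, 2 and 3, against 135.01, 145.09 and 135.99 TPM in MPN mice 1, 2 and 3. Zbtb46 (chromosome 2, 181387762 to 181459426, minus strand) was at 13.36, 36.2 and 67.86 TPM in the AML mice, against 80.2, 91.14 and 68.86 TPM in the MPN mice. For both genes AML replicate 1 was lowest and replicate 3 highest of the AML mice, and the groups did not overlap. For Zbtb46 the highest AML and the lowest MPN value nearly met. Batf3 averaged 67.8 ± 46.2 TPM in AML, against 139 ± 5.56 TPM in MPN (SD, n = 3 each), a log2 fold change of -1.29 ± 0.50 (SE) on the log2(TPM + 1) scale. Zbtb46 averaged 39.1 ± 27.4 TPM in AML, against 80.1 ± 11.1 TPM in MPN, with a log2 fold change of -1.28 ± 0.50. Relative to the MPN mean, Batf3 reached 16.6%, 46.9% and 83.1% and Zbtb46 16.7%, 45.2% and 84.8% in AML replicates 1, 2 and 3. In TPM, both factors thus took nearly the same share of the MPN mean in each AML mouse. In RPKM, given below, their shares were less alike. The ratio of Zbtb46 to Batf3 TPM was 0.579, 0.556 and 0.589 in the AML mice, against 0.594, 0.628 and 0.506 in the MPN mice. In RPKM, Batf3 was at 4.76, 16.14 and 25.25 in the AML mice, against 29.6, 30.63 and 31.2 in the MPN mice. Zbtb46 was at 1.6, 5.82 and 8.66 RPKM in the AML mice, against 12.2, 14.12 and 11.28 RPKM in the MPN mice. Relative to Batf3, Zbtb46 RPKM was thus lower in AML than in MPN, barely so between AML replicate 2 and MPN replicate 3. With a term for sex, which sets the male AML replicate 3 alone against the MPN mice, the log2 fold changes were -0.26 for Batf3 and -0.23 for Zbtb46.

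Clec9a, Cd209a and Clec10a encode C-type lectins. Clec9a, on cDC1, binds actin filaments exposed by dead cells. Clec9a (chromosome 6, 129408862 to 129424763, plus strand) was at 21.66, 142.28 and 200.64 TPM in AML mice 1, 2 and 3, against 340.5, 321.06 and 150.91 TPM in MPN mice 1, 2 and 3. AML replicate 3 lay above MPN replicate 3, so the groups overlapped. AML replicate 1 stood apart from the other AML mice, at 8.0% of the MPN mean against 52.5% and 74.1% in AML replicates 2 and 3. The means were 122 ± 91.3 TPM in AML, against 271 ± 104 TPM in MPN, with a log2 fold change of -1.56 ± 0.78. Without AML replicate 1 it was -0.59.

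Cd209a, a relative of the human pathogen receptor DC-SIGN found on cDC2 and monocyte-derived dendritic cells, showed the lowest share of the MPN level. Cd209a (chromosome 8, 3743397 to 3748984, minus strand) was at 1.12, 3.44 and 1.66 TPM in the AML mice, against 171.58, 209.52 and 310.14 TPM in the MPN mice. All AML values were far below all MPN values, and MPN replicate 3 was the highest. It averaged 2.07 ± 1.21 TPM in AML, against 230 ± 71.6 TPM in MPN, so that AML held 0.9% of the MPN level, and the log2 fold change was -6.26 ± 0.32. Clec10a, which binds galactose-type sugars on macrophages and dendritic cells (chromosome 11, 70156197 to 70170834, plus strand), was at 14.41, 13.91 and 19.11 TPM in the AML mice, against 130.85, 135.52 and 139.84 TPM in the MPN mice. Its values were tight within each group, and AML held 11.7% of the MPN level, with means of 15.8 ± 2.87 TPM in AML, against 135 ± 4.5 TPM in MPN (log2 fold change -3.03 ± 0.14). Clec10a had the smallest spread of the 8 genes among the AML mice, with a highest value 1.37 times the lowest.

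Itgax and Itgae encode integrin alpha chains. Itgax, or CD11c, pairs with the beta-2 chain and is the surface marker by which dendritic cells are commonly sorted. Itgax (chromosome 7, 128129547 to 128150657, plus strand) was at 18.28, 95.58 and 123.13 TPM in AML mice 1, 2 and 3, against 311.61, 314.24 and 306.91 TPM in MPN mice 1, 2 and 3. The MPN mice hardly differed, while AML replicate 1 lay far below the other AML mice, and the groups did not overlap. Itgax averaged 79.0 ± 54.4 TPM in AML, against 311 ± 3.71 TPM in MPN, or 25.4% of the MPN level (log2 fold change -2.35 ± 0.62). Itgae, or CD103, pairs with the beta-7 chain to bind E-cadherin on epithelium, and marks part of cDC1 and some T cells. Itgae (chromosome 11, 73090583 to 73147446, plus strand) was at 103.52, 257.87 and 496.79 TPM in the AML mice, against 102.0, 100 and 65.74 TPM in the MPN mice. AML replicate 1 lay barely above the highest MPN mouse, whereas replicates 2 and 3 lay well above. Itgae averaged 286 ± 198 TPM in AML, against 89.2 ± 20.4 TPM in MPN, 3.21 times the MPN level (log2 fold change 1.43 ± 0.51). Of the T cell markers, Cd3d, Cd3e and Cd3g were at most 0.57 TPM in the AML mice, against 1.27 to 5.23 TPM in MPN. Lat is a signalling adaptor also of other blood cells. Its level was 88.1, 37.5 and 31.31 TPM in the AML mice, against 4.87, 5.1 and 4.78 TPM in the MPN mice. All 11 listed T cell markers summed to 35.8 to 91.3 TPM in AML, mostly Lat, against 22.6 to 32.5 TPM in MPN. By limma, 6 of the 9 tested fell and 1, Lat, rose. The part of T cells in the Itgae values was not tested.

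Apol7c belongs to the apolipoprotein L family and has been described in mouse cDC1 as a protein that opens phagosomes during cross-presentation. Apol7c (chromosome 15, 77524852 to 77533316, minus strand) was at 0.07, 3.9 and 0.69 TPM in the AML mice, against 76.0, 86.58 and 55.71 TPM in the MPN mice. The groups were far apart, and AML replicate 2 was the highest AML mouse. It averaged 1.55 ± 2.06 TPM in AML, against 72.8 ± 15.7 TPM in MPN, or 2.13% of the MPN level (log2 fold change -5.13 ± 0.51). Between the AML mice the lowest and highest values differed 55.7-fold, though at TPM near the bottom of the scale.

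The RPKM table (reads per gene length and library size) gave similar shares. AML held 0.926% of the MPN level for Cd209a, 2.17% for Apol7c, 11.5% for Clec10a and 25.0% for Itgax. For Zbtb46, Clec9a and Batf3 it held 42.8%, 45.4% and 50.5%, and for Itgae 325%. Some reads could be assigned to more than 1 gene, because stretches of 75 bases, the read length, occur in other genes' transcripts. This held for 14.8% of the Apol7c stretches, 6.42% of those of Clec10a (shared with its neighbour Mgl2), 6.04% of those of Itgax (shared with Itgad) and 3.45% of those of Clec9a (shared with Clec1b). Levels of these 4 genes are uncertain for that reason, but the shares do not measure by how much, and the effect was not tested. Cd209a, Batf3, Zbtb46 and Itgae shared 0 stretches.

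The order of levels differed between the groups. In the AML mice Itgae had the highest TPM of the 8 genes in all 3 libraries, and Cd209a and Apol7c held the bottom places in all 3. Clec9a came next after Itgae in AML replicates 2 and 3, followed by Itgax, Batf3, Zbtb46 and Clec10a. AML replicate 1 placed Batf3 next, just above Clec9a and Itgax. By their spread over the AML mice, each gene from Itgae down to Clec10a overlapped its neighbour in the order of AML replicates 2 and 3, and Cd209a and Apol7c overlapped each other below all of these. In MPN replicates 1 and 2 the order was Clec9a, Itgax, Cd209a, Batf3, Clec10a, Itgae, Zbtb46 and Apol7c, and in MPN replicate 3 Cd209a came first. By their spread over the MPN mice, Clec9a, Itgax and Cd209a overlapped in level. Batf3 and Clec10a also overlapped, as did Itgae, Zbtb46 and Apol7c.

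Ratios within a library remove differences that touch both genes alike. Clec9a over Cd209a was 19.3, 41.4 and 121 in AML mice 1, 2 and 3, against 1.98, 1.53 and 0.487 in MPN mice 1, 2 and 3. Itgae over Itgax was 5.66, 2.7 and 4.03 in the AML mice, against 0.327, 0.318 and 0.214 in the MPN mice. Both ratios were higher in every AML mouse than in any MPN mouse. Clec9a over the chemokine receptor gene Xcr1, another cDC1 marker, was 1.93, 1.67 and 2.5 in the AML mice, against 2.31, 1.35 and 1.69 in the MPN mice, and so overlapped. Clec10a over Mgl2, the neighbouring lectin, was 3.47, 0.761 and 0.608 in the AML mice, against 2.29, 2.98 and 3.25 in the MPN mice. AML replicate 1 thus lay just above every MPN mouse, and AML replicates 2 and 3 lay below every MPN mouse. These pairs were set after earlier results were known, and the ratios were not tested.

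**Figure D2:**
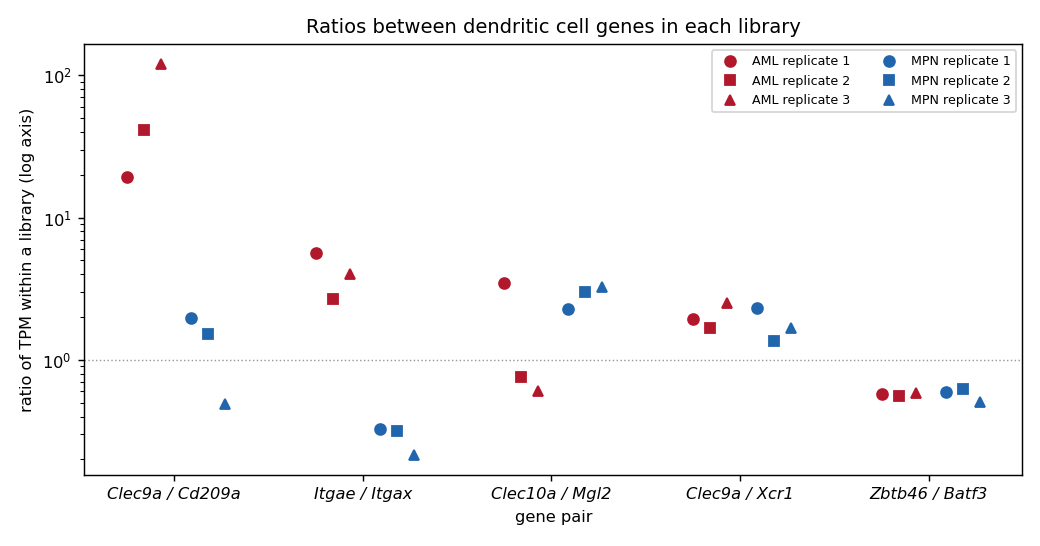
Ratio of TPM between pairs of genes within each library (log axis, dotted line at 1), with red points for AML and blue points for MPN mice. Clec9a over Cd209a is 19.3 or more in AML and 1.98 or less in MPN, Itgae over Itgax is 2.7 or more in AML and 0.327 or less in MPN, and the Zbtb46 over Batf3 points of both groups lie together between 0.506 and 0.628.

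Among the AML mice, replicate 1 was lowest for 7 of the 8 genes, all but Clec10a, and replicate 3 was highest for 6, all but Cd209a and Apol7c. For 5 of them replicate 1 was lowest and replicate 3 highest, namely Batf3, Zbtb46, Clec9a, Itgax and Itgae. Over all tested genes 15.4% had that order. AML replicates 1 and 2 were female and 3 was male, and replicate 1 had the deepest and replicate 3 the shallowest library. The part of sex and depth in this order was not tested. Among the MPN mice, replicate 3 was lowest for 5 of the 8 genes, against 65.5% of all tested genes.

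Other cDC1 genes also varied among the AML mice. Relative to the mean of the MPN mice, the median of 18 cDC1 genes tested lay at -2.16, -0.72 and 0.12 on the log2 scale in AML mice 1, 2 and 3, against 0.12, 0.31 and -0.41 in MPN mice 1, 2 and 3. The median of AML replicate 1 was thus the lowest and that of AML replicate 3 lay within the MPN range, although AML replicate 3 was below every MPN mouse for 7 of the 18 genes, among them Cd8a. The order with replicate 1 lowest and replicate 3 highest held for 14 of the 18. By limma, 5 of the 18 fell (10% of all tested genes did) and 13 did not pass, with a median log2 fold change of -0.94 against 0.13 for all genes. The 4 with the smallest p were Cd8a (the CD8 alpha chain of splenic cDC1 and of T cells, -4.37 ± 0.27, adjusted p = 0.000151), Tlr12 (a sensor of the parasite protein profilin, -1.89 ± 0.31, adjusted p = 0.00456), Il12b (the p40 chain of interleukin 12, -2.31 ± 0.42, adjusted p = 0.00707) and Snx22 (a sorting nexin, -1.48 ± 0.37, adjusted p = 0.0222). Cd8a was at 0.56, 1.83 and 1.76 TPM in the AML mice, against 42.37, 58.25 and 40.8 TPM in the MPN mice. Cd8b1, the CD8 beta chain of T cells, moved with it, at 0.03 to 0.25 TPM in AML, against 1.76 to 3.05 TPM in MPN (-1.56 ± 0.20, adjusted p = 0.00184), and the part of T cells in the Cd8a values was not tested. Ly75, the antigen receptor DEC-205, named after its values were seen, also fell (-0.97 ± 0.29, adjusted p = 0.0401). Xcr1, likewise named after its values were seen, was at 11.24, 85.01 and 80.31 TPM in the AML mice, against 147.11, 237.3 and 89.5 TPM in the MPN mice and did not pass (adjusted p = 0.115). The count of 5 became 10 without AML replicate 3 and 3 without AML replicate 2, MPN replicate 1 or MPN replicate 2, and it became 9 with array weights and 1 with a term for sex. Snx22 lost its call without AML replicate 2, MPN replicate 1 or MPN replicate 2 and with the sex term (0.0525 to 0.275), Ly75 without any 1 mouse but AML replicate 3, with no filter and with that term (0.0507 to 0.398), and Tlr12 and Il12b with that term alone (0.0572 and 0.0684). With the sex term the log2 fold changes of Tlr12 and Il12b were -1.69 and -2.23, those of Snx22 and Ly75 -0.76 and -0.58.

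By their median, cDC2 genes were low in all 3 AML mice, though not every gene was. Of 19, 12 were lower in every AML mouse than in any MPN mouse, against 16.1% of all tested genes. Esam alone was higher in every AML mouse, against 34.8% of all tested genes, and the rest overlapped. The median of 19 cDC2 genes lay at -2.50, -1.86 and -2.04 in AML mice 1, 2 and 3, against -0.11, -0.18 and 0.39 in MPN mice 1, 2 and 3, relative to the MPN mean. Replicate 3 was near replicate 2 here, and the order with replicate 1 lowest and replicate 3 highest held for 4 of the 19. Of the 19, 11 fell, 1 rose and 7 did not pass, with a median log2 fold change of -2.12. Irf4, the transcription factor of cDC2, was at 0.97, 1.15 and 1.26 TPM in the AML mice, against 33.41, 29.79 and 37.84 TPM in the MPN mice (-4.02 ± 0.16, adjusted p = 9.94e-05). The dendritic cell immunoreceptor genes Clec4a1 and Clec4a3 fell by 4.36 ± 0.30 and 3.34 ± 0.25 (adjusted p = 0.000225 and 0.000267). Relb, a subunit of the alternative NF-kappaB pathway, was at 10.55, 12.64 and 12.07 TPM in the AML mice, against 72.68, 75.02 and 122.7 TPM in the MPN mice (-2.80 ± 0.21, adjusted p = 0.000272). MPN replicate 3 was the highest MPN mouse for 12 of the 19 cDC2 genes, as for Cd209a, against 17.7% of all tested genes, and the lowest for 17 of the 18 cDC1 genes, against 65.5%. The count of 11 was 11 to 13 without any 1 mouse. Markers of other cells fell too, 13 of 15 for macrophages, 7 of 13 for monocytes (1 rose) and 6 of 7 for B cells. The part of such cells in the cDC2 values was not tested. Whether the cDC1 and cDC2 lists differ was not tested.

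**Figure D3:**
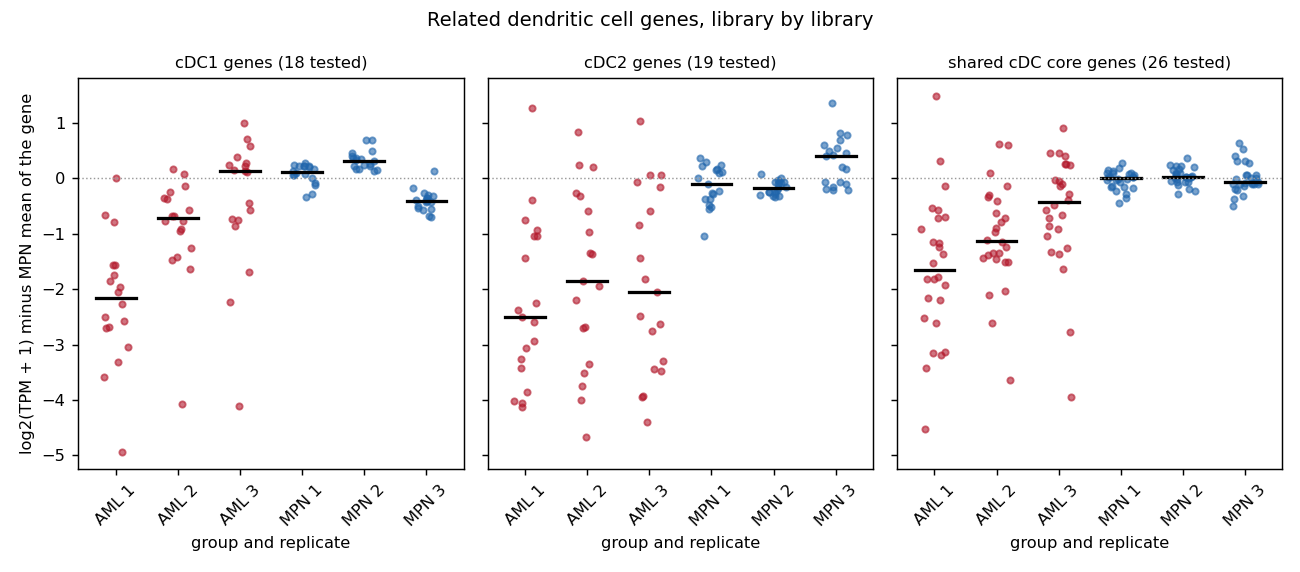
Each point is 1 gene's log2(TPM + 1) in a library minus its mean over the MPN mice, for cDC1, cDC2 and shared cDC genes, with AML libraries in red and MPN libraries in blue and a bar at each median. The cDC1 medians are -2.16, -0.72 and 0.12 in AML replicates 1, 2 and 3, while the cDC2 medians are -2.50, -1.86 and -2.04.

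**Figure D4:**
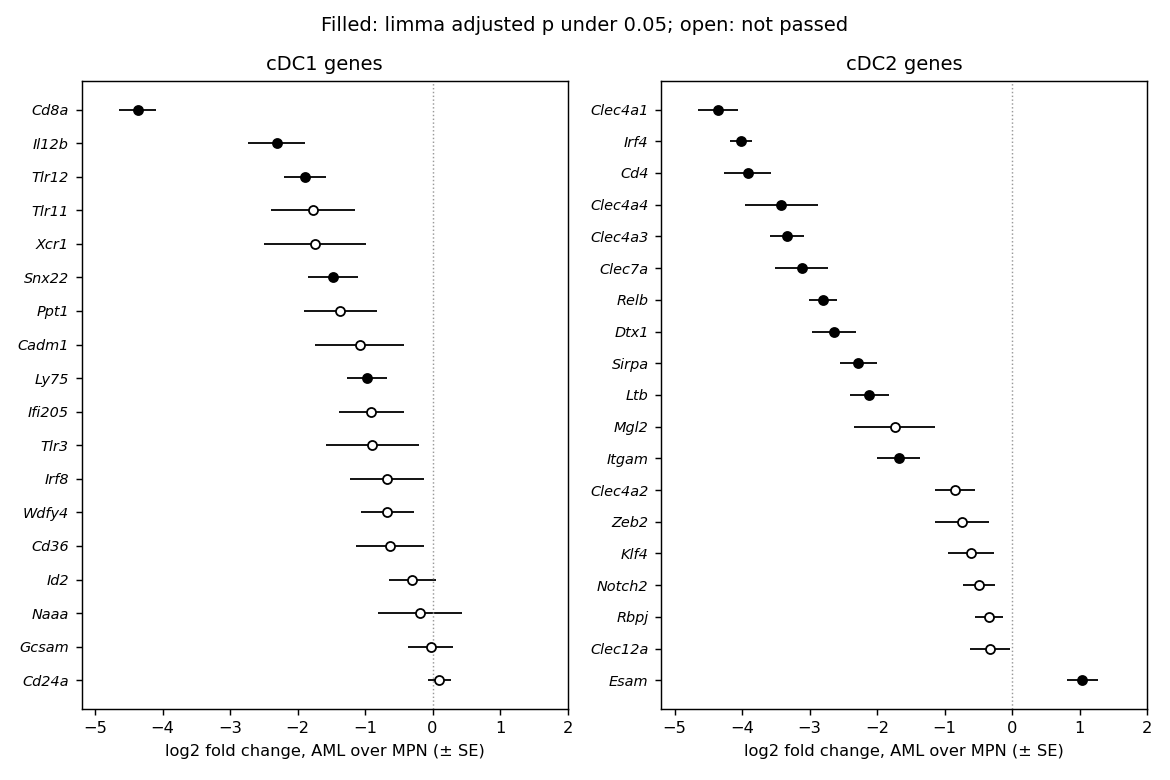
Log2 fold change, AML over MPN, with its standard error for each tested cDC1 and cDC2 gene. Filled points passed the limma adjusted p of 0.05, which were 5 of 18 cDC1 genes and 12 of 19 cDC2 genes, and of the 12 Esam alone lies above 0.

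Genes shared by both cDC types lay between the cDC1 and cDC2 medians in AML replicates 2 and 3 and above both in replicate 1. The median of 26 was -1.65, -1.14 and -0.44 in AML mice 1, 2 and 3, against 0.00, 0.03 and -0.08 in MPN mice 1, 2 and 3. Of the 26, 13 fell, 1 rose and 12 did not pass, with a median log2 fold change of -1.12. The chemokine receptor gene Ccr7, which guides dendritic cells to T cell zones, was at 4.69, 7.26 and 6.36 TPM in the AML mice, against 38.22, 52.67 and 59.97 TPM in the MPN mice (-2.85 ± 0.22, adjusted p = 0.000275). H2-Eb2, an MHC class II beta chain, fell by 4.04 ± 0.34 (adjusted p = 0.000357). Bcl11a, a transcription factor, fell by 1.14 ± 0.14 (adjusted p = 0.00167) and Traf1, an adaptor of TNF receptors, by 2.28 ± 0.38 (adjusted p = 0.00488), a call lost with a term for sex (0.059). The count of 13 became 20 without AML replicate 3 and 3 with a term for sex.

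Of 14 maturation genes, 9 fell, 2 rose and 3 did not pass (median -1.53). Cacnb3, a calcium channel subunit of mature dendritic cells, was at 3.81, 4.13 and 5.93 TPM in the AML mice, against 43.17, 44.38 and 40.29 TPM in the MPN mice (-2.97 ± 0.18, adjusted p = 0.000148). Fscn1, the actin bundler of dendrites, fell by 3.46 ± 0.32 (adjusted p = 0.00053). The costimulatory genes Cd40 and Cd80 fell by 3.94 ± 0.39 and 2.53 ± 0.29 (adjusted p = 0.000722 and 0.00117). Of 16 regulators of dendritic cell development, 5 rose, 3 fell and 8 did not pass (median -0.04). Over all tested genes 20.1% rose and 10% fell. Rel, an NF-kappaB subunit, fell by 1.56 ± 0.12 (adjusted p = 0.000267) and the signalling factor Stat3 by 0.68 ± 0.12 (adjusted p = 0.00556), while the granulocyte factors Gfi1 and Cebpa rose by 1.71 ± 0.22 and 1.05 ± 0.21 (adjusted p = 0.00184 and 0.00984). The Cebpa call ended with a term for sex (0.108). The 5 that rose became 3 without AML replicate 2, 2 without any 1 MPN mouse and 2 with a term for sex, and the 3 that fell became 5 without AML replicate 3 and 5 with array weights.

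Relatives of the lectin genes lie beside them on the chromosome. Of 11 relatives of Cd209a and Clec10a, 8 were tested, of which 7 fell and 1 did not pass (median -1.81). Cd209d, 123 kb from Cd209a, was at 0.46, 0.32 and 0.0 TPM in the AML mice, against 24.59, 11.76 and 20.44 TPM in the MPN mice (-3.94 ± 0.29, adjusted p = 0.000256). Cd209e, Cd209b and Cd209c, at 99, 169 and 191 kb, fell by 2.23 ± 0.24, 1.45 ± 0.20 and 2.08 ± 0.29 (adjusted p = 0.000971, 0.00228 and 0.00257). Fcer2a, the low-affinity IgE receptor of B cells, Clec4g and Asgr2 fell by 1.79 ± 0.16, 1.83 ± 0.17 and 1.27 ± 0.25 (adjusted p = 0.000436, 0.000546 and 0.00907), each from at most 3.4 TPM in MPN, and the Asgr2 call ended with a term for sex (0.13). Mgl2, 18.6 kb from Clec10a, was at 4.15, 18.27 and 31.45 TPM in the AML mice, against 57.08, 45.5 and 43.09 TPM in the MPN mice and did not pass (-1.74 ± 0.60, adjusted p = 0.064), but passed without AML replicate 1 or 3, with array weights, with a pseudocount of 5 and in the RPKM table (0.0141 to 0.0496). Unlike Clec10a, whose AML values were nearly equal, Mgl2 was lowest in AML replicate 1 and highest in replicate 3.

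In the cluster around Clec9a, 2 of 7 tested lectins fell and 5 did not pass (median -0.33). Clec7a, or Dectin-1, a receptor for fungal beta-glucan 36.8 kb from Clec9a, was at 3.97, 14.62 and 6.27 TPM in the AML mice, against 86.5, 67.23 and 60.65 TPM in the MPN mice (-3.12 ± 0.39, adjusted p = 0.0017). Clec2d fell by 1.10 ± 0.24 (adjusted p = 0.0132), a call that ended without MPN replicate 3 (0.0568) and with a term for sex (0.116). Clec1a, whose annotated end lies 0.008 kb from that of Clec9a on the opposite strand, was at 2.41, 6.81 and 10.9 TPM in the AML mice, against 26.4, 19.96 and 6.96 TPM in the MPN mice (adjusted p = 0.127). It was lowest in AML replicate 1 among the AML mice and in replicate 3 among the MPN mice, as Clec9a was. Clec12a, Clec1b, Olr1 and Clec2i had overlapping groups, with log2 fold changes of -0.33, -0.21, -0.14 and 0.22 (adjusted p of 0.407 to 0.799).

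Of the partners and paralogs of Batf3, Irf4 fell, Jund rose (0.84 ± 0.26, adjusted p = 0.0464) and 5 of 7 did not pass. Over all tested genes 30.1% passed, so the number that passed here is near that share. The Jund call ended under 10 of 16 alternatives, with adjusted p of 0.0502 to 0.128. Irf8, the partner of Batf3 in cDC1, was at 202.04, 651.51 and 1100.84 TPM in the AML mice, against 870.12, 975.39 and 700.42 TPM in the MPN mice (-0.68 ± 0.55, adjusted p = 0.373). The order among the AML mice was that of Batf3, but AML replicate 3 was above every MPN mouse. Batf, Batf2, Jun and Junb overlapped between the groups (adjusted p of 0.201 to 0.812). The 1 that fell became 2 without AML replicate 3, where Junb passed (0.0323).

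Of the integrins and partners of Itgax and Itgae, 5 of 9 fell and 4 did not pass (median -0.91). Itgad, 3.72 kb from Itgax, was at 0.21, 0.16 and 0.14 TPM in the AML mice, against 5.06, 3.58 and 6.91 TPM in the MPN mice (-2.37 ± 0.23, adjusted p = 0.000575). Itgam, or CD11b, 11.1 kb from Itgax, was at 20.15, 50.06 and 27.62 TPM in the AML mice, against 129.03, 80.31 and 95.31 TPM in the MPN mice (-1.68 ± 0.32, adjusted p = 0.00893). Icam1, an adhesion ligand, Itgb2l and Itga4 fell by 1.79 ± 0.31, 1.25 ± 0.28 and 0.69 ± 0.16 (adjusted p = 0.00601, 0.0161 and 0.0191). Itgb2, the partner chain of Itgax, was at 97.34, 241.9 and 325.55 TPM in the AML mice, against 373.97, 327.7 and 415.02 TPM in the MPN mice (adjusted p = 0.123). Itgb7, the partner chain of Itgae, was at 159.39, 205.14 and 355.72 TPM in the AML mice, against 263.54, 247.99 and 271.52 TPM in the MPN mice (adjusted p = 0.587), and passed, lower in AML, without AML replicate 3 (0.0324). Cdh1, which encodes E-cadherin, and Itgal did not pass (adjusted p = 0.896 and 0.974). With a term for sex the calls of Itgam, Icam1, Itgb2l and Itga4 ended (0.0572 to 0.149), at log2 fold changes of -1.81, -1.34, -1.21 and -0.66. Those of Itgb2l and Itga4 also ended without MPN replicate 1 (0.0507 and 0.0604), that of Itgb2l without MPN replicate 3 (0.0568) and that of Itga4 without AML replicate 2 (0.0534). The count of 5 became 3 without MPN replicate 1 and 1 with the sex term.

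Of 12 Apol genes, 4 were tested, with no value above 5.43 TPM. Apol10b, 50.5 kb from Apol7c, was at 0.17, 0.78 and 0.14 TPM in the AML mice, against 1.23, 2.46 and 1.16 TPM in the MPN mice and fell (-0.94 ± 0.27, adjusted p = 0.0362). Apol7e rose (0.84 ± 0.25, adjusted p = 0.0409). Each of these calls ended under 7 alternatives, with adjusted p of 0.0545 to 0.116 for Apol10b and 0.0562 to 0.49 for Apol7e. Apol11b and Apol8 did not pass (adjusted p = 0.064 and 0.296) except with array weights (0.0183 and 0.0334). The count of 1 that fell became 0 in the RPKM table and without AML replicate 1 or 3 or any 1 MPN mouse, among others, and 3 with array weights. Apol7c, at 55.71 to 86.58 TPM in the MPN mice, was the highest gene of the family there.

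Genes whose profile over the 6 libraries was nearest to the mean profile of the 8 genes were ranked by the Euclidean distance of centred log2(TPM + 1) values. The nearest were Prss30, a serine protease (0.37), Siglecg, an inhibitory sialic acid receptor (0.403), Klrk1, the receptor NKG2D (0.407), Slamf7, a surface receptor (0.475), and Slfn5 (0.479). H2-Ob, a chain of an MHC class II chaperone (0.567), the DNA sensor Tlr9 (0.57), Pyhin1 (0.571), Slc46a3 (0.576), Themis2 (0.576) and Ciita, the transactivator of MHC class II genes (0.625), followed. Prss30 was at 3.24, 10.89 and 16.23 TPM in the AML mice, against 45.66, 45.19 and 45.16 TPM in the MPN mice. Among the 8 genes themselves Itgax lay nearest to their mean profile, at 0.74, followed by Clec10a at 1.44, Batf3 at 1.48, Zbtb46 at 1.51 and Clec9a at 1.67. Apol7c, Itgae and Cd209a lay far from it, at 3.54, 4.77 and 4.86. The mean profile therefore describes Itgax better than the genes with the largest differences.

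Markers of other cell types moved as well, and their part in the dendritic cell values was not tested. Counts are over the tested markers of a list, whereas sums and the genes named take in every listed marker, tested or not. Of 10 plasmacytoid dendritic cell markers 7 fell and 1 rose, their summed level being 145.1 to 180.7 TPM in AML, against 434.0 to 641.6 TPM in MPN. Siglech was at most 0.06 TPM in AML and Klk1, not tested, was listed at 0 in all AML mice, while Runx2 rose, at 19.08 to 37.6 TPM in AML, against 12.2 to 15.68 TPM in MPN (0.87 ± 0.25, adjusted p = 0.0342). Irf7 was at 4.31 to 25.6 TPM in AML, against 151.88 to 300.05 TPM in MPN and Bst2 at 76.35 to 101.71 TPM in AML, against 151.14 to 222.53 TPM in MPN. Of 15 macrophage markers 13 fell, with sums of 89.5 to 170.2 TPM in AML, against 416.6 to 547.3 TPM in MPN. Vsig4, not tested, was listed at 0 in all AML mice, Cd68 was at 53.08 to 121.02 TPM in AML, against 211.58 to 243.45 TPM in MPN and Hmox1 at 7.16 to 11.67 TPM in AML, against 27.33 to 52.62 TPM in MPN. Macrophages also carry Clec10a and monocyte-derived cells Cd209a.

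Of 13 monocyte markers 7 fell and 1 rose, with sums of 1320.4 to 2311.2 TPM in AML, against 1914.8 to 2631.3 TPM in MPN that overlapped, as did S100a4 and Ly6c2, the highest of them. The 7 became 4 without MPN replicate 1 or 3, with a term for sex, with a filter at 5 TPM and in the RPKM table. Of 7 B cell markers 6 fell, with sums of 27.7 to 38.2 TPM in AML, against 83.8 to 113.0 TPM in MPN, of which Cd79b held 26.05 to 33.94 TPM in AML, against 26.93 to 38.24 TPM in MPN and Cd22 at most 0.35 TPM in AML. Of 9 T cell markers 6 fell and 1 rose, with sums of 35.8 to 91.3 TPM in AML, against 22.6 to 32.5 TPM in MPN, the AML sum being mostly Lat, which rose (3.02 ± 0.35, adjusted p = 0.0013). Cd5 was at most 0.93 TPM in AML. Of 8 natural killer cell markers 5 fell and 2 rose, with sums of 289.1 to 486.6 TPM in AML, against 222.7 to 303.1 TPM in MPN, mostly Nkg7, at 278.34 to 472.27 TPM in AML, while Klrd1 was at 1.77 to 4.04 TPM in AML, against 107.46 to 198.04 TPM in MPN. The other natural killer cell markers that fell were far below Klrd1 in MPN, none above 7.44 TPM, with Ncr1 at 1.31 to 3.57 TPM. Which cells held Klrd1 was not tested. The T and natural killer cell falls became 1 each in the RPKM table.

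Of 11 neutrophil markers 7 fell, with sums of 6902.1 to 20663.6 TPM in AML, against 30455.4 to 48291.4 TPM in MPN. Transcripts of this list were thus abundant after c-Kit selection in both groups, but the sums were mostly S100a8 and S100a9. Cxcr2 was at 16.58 to 21.32 TPM in AML, against 14.6 to 20.21 TPM in MPN, and how mature the cells were was not tested. S100a9 was at 2295.3 to 7428.85 TPM in AML, against 11095.21 to 17994.82 TPM in MPN and S100a8 at 2358.35 to 6995.23 TPM in AML, against 10540.82 to 15395.46 TPM in MPN. The 7 became 2 without MPN replicate 1 or 3 and with a term for sex, and 3 without a filter. Of 12 progenitor markers 8 rose, with sums of 5061.0 to 11456.3 TPM in AML, against 3732.8 to 5023.0 TPM in MPN, and Mpo and Elane, the highest in MPN, overlapped. The 8 became 5 with a term for sex. Of 6 endothelial markers 3 rose and 1 fell, with sums of 125.4 to 147.1 TPM in AML, against 57.2 to 72.4 TPM in MPN, mostly Pecam1 and Egfl7, while Cdh5 and Tek were at most 0.57 and 0.18 TPM in AML. The plasmacytoid count of 7 became 3 and the natural killer cell count of 5 became 2 with a term for sex.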

How the data were processed

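RNA from c-Kit+ splenocytes of 6 mice was read as 75-base pairs from stranded poly-A libraries, per the labels' protocols. The TPM values are the authors' gene-level RSEM output, per the file headers, with 1 column per mouse. The authors also deposited RPKM values by Ensembl identifier, used here as a check. TopHat2, RSEM, Bowtie2, mm9 and mm10 are named per the submitters' processing notes, with no role or version, and for neither table is the build named there. Depth is lost in TPM. Relative depth came from RPKM steps, with 71.2% to 83.9% of low values within 0.05 of a whole read, and read counts were not analysed here.

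Groups were taken from the sample titles. Genes that reached 1 TPM in 3 or more libraries were compared as log2(TPM + 1) with limma (3.58.1, R 4.3.3), using a mean-variance trend, no covariate and two-sided tests, adjusted over 12223 genes by the Benjamini-Hochberg method at 0.05. This scale understates the change of low genes. The script was tested on simulated data. The members and gene lists were chosen with earlier results of these data known. Named genes were the 8 members, the 11 nearest to their mean profile, in each related or family list the 4 with the smallest p and any family gene at 1 TPM or more, and in each list of another cell type the 2 highest in MPN. Others were named after their values were seen, such as Xcr1, Ly75 and the defining or zero-level markers of other cell types. Alternatives were pseudocounts of 0.1 and 5, no filter and 5 TPM, median and quantile scaling, RPKM, no trend, array weights, a term for sex and leaving out each mouse. Positions are from GENCODE M21, for location only. Of 25991 RPKM identifiers 25213 matched a symbol, and 27 symbols changed to dates were not named. Rab7b was not analysed here.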

Additional observations from a re-analysis of the deposited data

How the results depend on the processing

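Over 16 alternatives the sign of all 8 members held. Both filter settings and the fit without a trend could not change a member's value, and the members were chosen with this contrast known. By the rule used, 11 of 128 values moved by over 1 SD, the gene's residual SD in the main fit. That SD is large for genes that vary among mice. With a term for sex, Clec9a at -0.34 and Itgax at -1.33 thus did not count as moved, whereas Clec10a at -2.76 did. The log2 fold changes of the members ranged from -6.83 to -5.03 for Cd209a, -3.17 to -2.76 for Clec10a, -2.17 to -0.34 for Clec9a, -1.81 to -0.26 for Batf3, -1.80 to -0.23 for Zbtb46, -2.85 to -1.33 for Itgax, 0.89 to 2.49 for Itgae and -6.46 to -3.59 for Apol7c. Within the sequencing run of 5 libraries, without MPN replicate 1, they were -6.45, -3.06, -1.35, -1.31, -1.27, -2.34, 1.54 and -5.09 in that order. The calls over all genes fell to 1208 with a term for sex and were 2009 to 3705 without any 1 mouse, against 3678. Higher genes made up 66.7% of calls, against 59.0% with median scaling, 59.1% with quantile normalization and 55.7% with a term for sex. Both scalings moved the median log2 fold change of all genes to 0.05.

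Leaving out 1 mouse gave 3 to 10 falling cDC1 genes, 11 to 13 cDC2 genes, 9 to 20 shared genes, 7 to 10 maturation genes, 2 to 5 falling regulators and 2 to 5 rising ones. Array weights, whose estimation stopped before its convergence tolerance, gave 9 cDC1 genes and 5 falling regulators, and a term for sex gave 1 cDC1 gene, 3 shared genes and 2 rising regulators. Of 61 related and family genes named, 20 kept their call and sign under all 16 alternatives and another 6 under those in which they were tested. The causes of these shifts were not tested, except that the term for sex leaves 1 AML mouse in the contrast. A filter at 5 TPM tests fewer low genes and left 2 falling Cd209a and Clec10a relatives, 3 B cell, 0 T cell and 1 natural killer cell markers.

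Signs turned only in genes that had not passed. With a term for sex the adjusted p were 0.727 for Irf8, 0.977 for Clec1b, 0.92 for Clec2i, 0.28 for Jun, 0.286 for Junb and 0.187 for Itgb7. With array weights they were 0.516 for Olr1, 0.473 for Clec2i and 0.714 for Cdh1, and for Itgal 0.879 with median scaling and 0.871 with quantile normalization. Leaving out 1 mouse turned the sign of 9 genes in at least 1 fit. Their limma adjusted p are given over all fits that left out 1 mouse, whether or not the sign turned. They were 0.141 to 0.938 for Clec12a, 0.0775 to 0.979 for Irf8 and 0.37 to 0.828 for Olr1. For Clec2i, Jun and Junb they were 0.183 to 0.826, 0.169 to 0.911 and 0.0323 to 0.951. For Itgal, Itgb7 and Cdh1 they were 0.23 to 0.941, 0.0324 to 0.888 and 0.586 to 0.858. Junb and Itgb7 passed without AML replicate 3, where their sign had not turned. No paired analysis was possible because replicate numbers follow accession order and pair no mice. The number of mice, 3 a group, and the unknown read counts limit these values.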

Other observations

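A few genes of the dendritic cell lists ran against the rest of their list, and they were picked after their values were seen. Ccl17, a chemokine of mature dendritic cells that draws T cells, was at 119.54, 10.44 and 159.64 TPM in AML mice 1, 2 and 3, against 5.3, 2.7 and 2.46 TPM in MPN mice 1, 2 and 3. Every AML mouse was above every MPN mouse, though AML replicate 2 was far below the other AML mice. Ccl17 rose by 3.81 ± 0.92 on the log2 scale (limma adjusted p = 0.02), a call that ended without MPN replicate 2 or 3 (0.0595 and 0.0789). Ccl22, a chemokine that binds the same receptor, was at 3.33, 10.07 and 7.61 TPM in the AML mice, against 37.3, 39.65 and 21.29 TPM in the MPN mice and fell (-2.13 ± 0.38, adjusted p = 0.00664). Whether Ccl17 and Ccl22 differ was not tested.

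Il12a and Il12b encode the chains of interleukin 12. Il12a was at 13.06, 13.57 and 10.04 TPM in the AML mice, against 4.28, 3.72 and 3.08 TPM in the MPN mice and rose (1.49 ± 0.19, adjusted p = 0.00167). Il12b was at 0.02, 1.69 and 0.8 TPM in the AML mice, against 5.66, 12.61 and 5.59 TPM in the MPN mice. Both genes separated the groups, in opposite directions. Flt3, whose ligand drives dendritic cell formation, was at 163.16, 140.29 and 198.44 TPM in the AML mice, against 108.44, 112.92 and 107.59 TPM in the MPN mice (0.59 ± 0.14, adjusted p = 0.0179), a call that ended without any 1 MPN mouse (0.0552 to 0.0605). Esam, an adhesion molecule of splenic cDC2, was the 1 cDC2 gene that rose (1.04 ± 0.23, adjusted p = 0.0144), at 5.02 to 7.11 TPM in AML and 1.77 to 3.44 TPM in MPN. Its call ended without MPN replicate 1 or 2 and with a term for sex (0.0524 to 0.122). Clnk, a signalling adaptor, rose by 0.99 ± 0.29 (adjusted p = 0.038), and lost its call under 7 of 16 alternatives (0.0546 to 0.25).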
